A study of Mus musculus with 8 samples.

Results

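The 10 genes described here encode the core machinery of H3K9 methylation and the heterochromatin proteins that act with it in mouse embryonic stem (ES) cells: *Trim28*, *Setdb1*, *Ehmt1*, *Ehmt2*, *Suv39h1*, *Suv39h2*, *Cbx1*, *Cbx3*, *Cbx5* and *Atrx*. They were found by matching the Ensembl identifiers of the count table to gene symbols, without their version numbers, and all 10 were among the 43309 genes of the table. The 8 libraries came from J1 (129SV) ES cells grown in serum medium on gelatin without feeders, and formed 4 groups of 2. WT libraries were labelled as *Zbtb24* wild-type (2lox/+) and KO libraries as *Zbtb24* knockout (1lox/1lox), and each genotype was prepared from 1000 cells (about 10 ng RNA, 10 PCR cycles) and from 100 cells (about 1 ng RNA, 18 PCR cycles) with the SMARTer Ultra Low kit, which copies polyadenylated RNA into full-length cDNA and amplifies it. Cells and PCR cycles changed together and cannot be told apart. ZBTB24 is a zinc finger transcription factor, and WT cells carry a floxed (2lox) allele beside a + allele. Which clone gave which library is not labelled, so p-values measure the spread between these libraries, which may in part be technical.

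Methylation of the H3K9 lysine on the tail of histone H3 marks silent chromatin. In ES cells it keeps retroviral elements, germline genes and pericentromeric repeats quiet. KRAB zinc finger proteins bind DNA and recruit TRIM28 (KAP1), a scaffold, which brings SETDB1 to trimethylate H3K9. EHMT1 (GLP) and EHMT2 (G9a) form a heterodimer that lays down mono- and dimethylation, and SUV39H1 and SUV39H2 trimethylate H3K9 at pericentromeric heterochromatin. The HP1 proteins CBX1 (HP1 beta), CBX3 (HP1 gamma) and CBX5 (HP1 alpha) read the mark through their chromodomains, and ATRX is a remodeller that deposits histone H3.3 at repeats and telomeres with DAXX.

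On mm10 (GRCm38), the annotated genes are *Trim28* (chr7:12999114-13031035, + strand), *Setdb1* (chr3:95323525-95357202, - strand), *Ehmt1* (chr2:24789928-24919614, - strand), *Ehmt2* (chr17:34898469-34914052, + strand), *Suv39h1* (chrX:8061171-8074760, - strand), *Suv39h2* (chr2:3455815-3475031, - strand), *Cbx1* (chr11:96789127-96808640, + strand), *Cbx3* (chr6:51470360-51483704, + strand), *Cbx5* (chr15:103191544-103239816, - strand) and *Atrx* (chrX:105797615-105929403, - strand). Counts cover all exons of each protein-coding gene.

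The promoters of 3 members are printed because they hold the ZBTB24 binding motif (*Trim28*) or belong to the members with the largest rise and the largest fall in the comparison of genotypes at 1000 cells (*Suv39h1* and *Ehmt2*). They are RefSeq sequences on GRCm38.p6, 5′ to 3′ on the strand of the gene, from 250 bases before to 50 bases after a transcript start. *Suv39h1* and *Ehmt2* have another RefSeq promoter each, and the window shown is the one nearest the first annotated base of the gene. Capitals mark the motif CAGGACCT in *Trim28* (chr7:13023902-13024201, + strand) and CG dinucleotides in *Suv39h1* (chrX:8074711-8075010, - strand) and *Ehmt2* (chr17:34898224-34898523, + strand).
Trim28: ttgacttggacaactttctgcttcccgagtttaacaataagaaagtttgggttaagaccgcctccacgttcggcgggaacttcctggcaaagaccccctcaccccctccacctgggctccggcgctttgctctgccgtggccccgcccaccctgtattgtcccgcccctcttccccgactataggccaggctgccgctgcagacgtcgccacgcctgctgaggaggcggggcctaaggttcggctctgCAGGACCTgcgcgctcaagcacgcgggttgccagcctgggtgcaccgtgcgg
Suv39h1: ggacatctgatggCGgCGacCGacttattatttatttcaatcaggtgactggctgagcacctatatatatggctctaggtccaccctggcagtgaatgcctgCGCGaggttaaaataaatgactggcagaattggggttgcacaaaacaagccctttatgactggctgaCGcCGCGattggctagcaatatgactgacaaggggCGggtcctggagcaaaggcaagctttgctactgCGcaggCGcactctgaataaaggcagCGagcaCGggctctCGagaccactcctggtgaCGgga
Ehmt2: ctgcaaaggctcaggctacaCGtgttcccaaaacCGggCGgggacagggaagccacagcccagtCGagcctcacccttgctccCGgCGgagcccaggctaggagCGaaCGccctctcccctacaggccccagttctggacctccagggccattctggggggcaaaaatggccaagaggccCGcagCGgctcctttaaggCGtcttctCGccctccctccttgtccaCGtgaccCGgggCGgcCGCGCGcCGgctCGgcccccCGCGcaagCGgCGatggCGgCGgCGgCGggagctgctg
The motif was searched as CAGGACCT on both strands. It lay in 1 of the 14 RefSeq promoters of the members, that of *Trim28*, where it began at base 249 of the window on the strand of the gene. Of all 32851 promoters of the same length, 653 (1.99%) held it. CG dinucleotides numbered 8 to 40 in the member promoters, 15 in the *Suv39h1* window shown and 28 in that of *Ehmt2*, against a median of 7 over all promoters. A match describes letters in this window and not a bound site.

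The libraries held 9666985 to 16686525 counts, with the lowest total in WT 100-cell replicate 1. All 10 members passed the filter on low counts, with 183 counts (*Suv39h1*, 95% Poisson interval 157 to 212) to 14220 counts (*Trim28*) in a library, and 16816 genes were tested. *Zbtb24*, the targeted gene, went against its label: at 1000 cells the WT libraries held 244 and 201 counts of it and those labelled KO 526 and 545, and with 100 cells the WT libraries held 197 and 269 and those labelled KO 532 and 494. A count over all exons does not show whether a segment is missing, and every direction below is that of the libraries labelled KO. ES cell markers summed to 6008 to 7027 in cpm (counts scaled to the library total) in every library. That sum does not show that each marker was alike. Of its 8 genes, 4 were called higher and 2 lower in KO at 1000 cells, against 20.9% and 20.6% of all genes. At 100 cells 3 were called higher and 1 lower, against 17.6% and 16.6%. The KO 100-cell libraries stood apart: 7 neuron markers summed to 169 to 174 cpm there and to 22.2 to 35.3 in the other groups, and 8 glia markers to 227 to 233 there, 22.2 to 23.2 in KO at 1000 cells, 12.6 to 12.8 in WT at 1000 cells and 10.6 to 12.7 in WT at 100 cells. *Mobp*, *Syt1* and *Snap25*, named after their values were seen, were called higher in KO at 1000 cells too (2.79, 4.20 and 1.77-fold), and *Nefl* lower (0.546-fold). *Aqp4* was at 0 in both WT and both KO 1000-cell libraries. Fibroblast markers summed to 6.17 to 6.25 cpm in KO 100-cell libraries and to 1.74 to 4.42 elsewhere, and endoderm markers to 18.9 to 19.8 against 3.82 to 7.24. Much of this endoderm sum was *Ttr*, with 141 and 143 counts in the KO 100-cell libraries and 0 in all others. Of 5 endoderm markers tested, 2 were called higher in KO at 100 cells and 3 were not called, while 17.6% of all genes were called higher. *Ttr* and *Sox17* reached 10 counts in KO 100-cell libraries alone and passed the filter on low counts only through them. The count therefore cannot be set against that share. The part of this marker RNA in the values at either input was not tested.

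Levels are given as cpm scaled with TMM factors, and levels of different genes were compared only as cpm per kb of annotated exons. On that scale *Trim28* was far above the other members, at 218 cpm per kb over the 8 libraries, which ranked 246 of 14307 protein-coding genes tested. The HP1 genes followed, with *Cbx1* at 60.1, *Cbx3* at 35.8 and *Cbx5* at 27.4 cpm per kb, and then *Atrx* at 16.4. The methyltransferase genes were lowest, from 9.69 for *Setdb1* and 8.88 for *Ehmt2* to 7.96 for *Suv39h2*, 7.65 for *Ehmt1* and 4.62 for *Suv39h1*, which still lay above the median of these coding genes (1.50 times that median). *Trim28* and *Cbx1* held the first and second place in all 4 groups. Neighbours in the order whose ranges overlapped within a group were *Cbx5* and *Cbx3* in WT at both inputs, *Ehmt2* and *Setdb1* as well as *Suv39h2* and *Ehmt1* in WT at 100 cells, *Setdb1* and *Suv39h2* as well as *Suv39h1* and *Ehmt2* in the KO 1000-cell group, and *Ehmt2* and *Ehmt1* in the KO 100-cell group. *Ehmt2* led the methyltransferase genes in WT at 1000 cells (10.5 cpm per kb) and was last of all 10 in KO at 1000 cells (5.88 cpm per kb), where its range overlapped that of *Suv39h1* (5.94 cpm per kb). Exon lengths come from a later annotation than the one used for counting, and uneven coverage along transcripts limits this order.

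**Figure D1:**
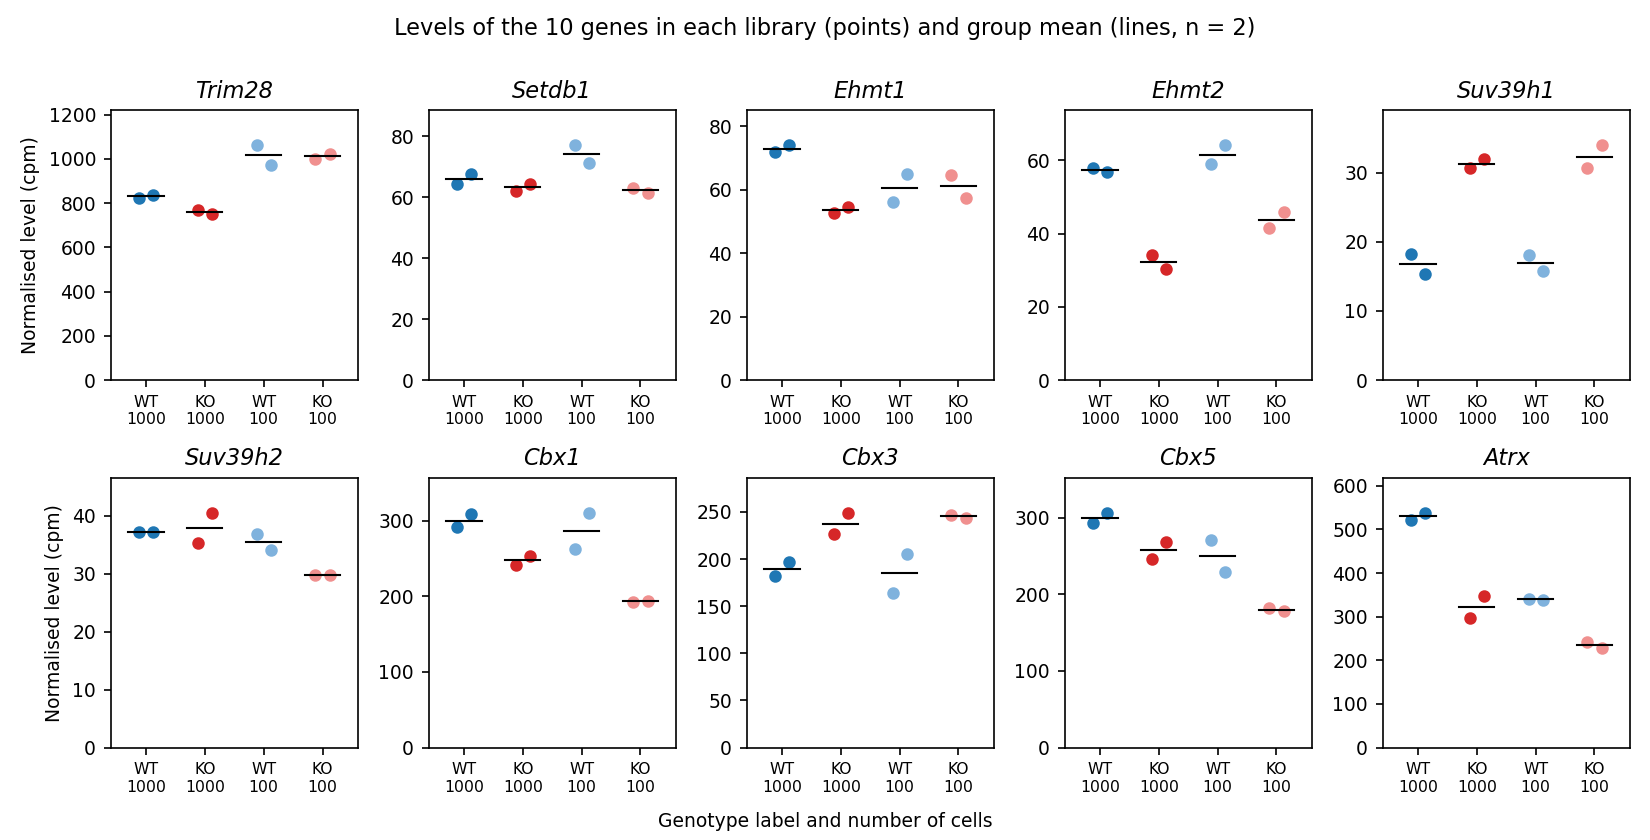
Levels of the 10 genes (y axis, cpm with TMM scaling, from 0) in each library (points) by genotype label and number of cells (x axis), with group means (black lines, n = 2). *Suv39h1* and *Cbx3* lay higher in all 4 KO than in all 4 WT libraries, and *Ehmt2* and *Cbx1* lower.

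Comparing KO with WT at 1000 cells asks how the knockout label goes with the level of each gene at the larger input. Of the 10 members, 2 rose (*Suv39h1* and *Cbx3*) and 5 fell (*Ehmt1*, *Ehmt2*, *Cbx1*, *Cbx5* and *Atrx*) by edgeR's quasi-likelihood test with Benjamini-Hochberg adjustment at 0.05, while *Trim28*, *Setdb1* and *Suv39h2* did not pass. Over all tested genes, 41.5% were called, 20.9% higher and 20.6% lower, so that a call by itself does not set a gene apart. The median log2 ratio was -0.17 over the members and -0.00089 over all tested genes. At 100 cells 2 members rose (*Suv39h1* and *Cbx3*) and 4 fell (*Ehmt2*, *Cbx1*, *Cbx5* and *Atrx*), against 34.2% of all genes called, 17.6% higher and 16.6% lower. The median log2 ratio there was -0.29 over the members and -0.0010 over all tested genes. At 100 cells every member call except that of *Suv39h1* was lost without KO replicate 1, and every member call was lost without KO replicate 2. Leaving out KO replicate 1 or 2 lowered the calls over all genes as well. In such fits edgeR assumed that the lone library varied like the WT libraries. The ratios of the 6 called members kept their sign in both cases.

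In all, 6 members were called at both inputs with the same sign, against 16.8% of all genes tested. The 4 KO and 4 WT libraries did not overlap for 4 members, *Suv39h1* and *Cbx3* on the higher side and *Ehmt2* and *Cbx1* on the lower side, against 28.0% of all genes. The 2 inputs share no library in these comparisons, but the labels do not say whether they share clones.

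*Trim28*, the scaffold of the KRAB zinc finger pathway, had, at 1000 cells, 823 and 839 cpm for WT and 769 and 751 cpm for KO. The 100-cell levels were 1061 and 971 cpm for WT and 1000 and 1023 cpm for KO. The groups did not overlap at 1000 cells and overlapped at 100 cells. The log2 ratio of KO over WT was -0.13 ± 0.05 (SE, edgeR adjusted p = 0.056) at 1000 cells and -0.05 ± 0.11 (edgeR adjusted p = 0.75) at 100 cells, with 95% intervals of -0.24 to -0.02 and -0.30 to 0.20. With library sizes alone in place of TMM factors, the ratio at 1000 cells was -0.21 and passed (edgeR adjusted p = 0.00079), and with limma-voom it was -0.13 and passed as well (adjusted p = 0.028).

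*Setdb1*, the methyltransferase that TRIM28 recruits, had, at 1000 cells, 64.3 and 67.8 cpm for WT and 62.0 and 64.4 cpm for KO. With 100 cells its levels were 76.9 and 71.3 cpm for WT and 63.1 and 61.4 cpm for KO. The groups overlapped at 1000 cells, and both KO libraries were below both WT libraries at 100 cells. The log2 ratios were -0.06 ± 0.08 (edgeR adjusted p = 0.58) and -0.29 ± 0.11 (edgeR adjusted p = 0.068). At 100 cells the ratio passed in a single fit of all 8 libraries (-0.25, edgeR adjusted p = 0.043) and without WT replicate 1 (-0.23, edgeR adjusted p = 0.014) or 2 (-0.34, edgeR adjusted p = 0.00043). The exons of *Setdb1* overlap genes on the opposite strand (*Cers2* and *Gm37500*) over 4.73% of their length, and counting ignored strand.

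*Ehmt2* encodes G9a, a main H3K9 dimethylase. It had, at 1000 cells, 58.0 and 57.0 cpm for WT and 34.3 and 30.3 cpm for KO. The corresponding levels with 100 cells were 59.0 and 64.1 cpm for WT and 41.6 and 45.8 cpm for KO. All 4 KO libraries were below all 4 WT libraries. The log2 ratio was -0.83 ± 0.09 at 1000 cells (0.561-fold, edgeR adjusted p = 1.38e-08) and -0.54 ± 0.12 at 100 cells (0.688-fold, edgeR adjusted p = 0.0081). *Ehmt1*, which encodes its partner GLP, had 72.1 and 74.0 cpm for WT against 52.7 and 54.7 cpm for KO at 1000 cells, a log2 ratio of -0.44 ± 0.08 (edgeR adjusted p = 4.44e-05). At 100 cells *Ehmt1* had 56.3 and 65.1 cpm for WT and 64.8 and 57.4 cpm for KO, and the groups overlapped (log2 ratio -0.04 ± 0.12, 95% interval -0.31 to 0.24, edgeR adjusted p = 0.84). The difference of its ratio between inputs was 0.45 ± 0.15 on the log2 scale and missed the threshold (edgeR adjusted p = 0.0501).

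*Suv39h1*, which encodes a trimethylase of pericentromeric heterochromatin, had the largest rise. It had, at 1000 cells, 18.2 and 15.4 cpm for WT and 30.6 and 32.0 cpm for KO. The 100-cell levels were 18.1 and 15.8 cpm for WT and 30.7 and 33.9 cpm for KO. Every KO library was above every WT library, and the ranges of the inputs overlapped within each genotype. The log2 ratio was 0.89 ± 0.11 at 1000 cells (1.85-fold, edgeR adjusted p = 2.23e-07) and 0.89 ± 0.15 at 100 cells (1.85-fold, edgeR adjusted p = 0.0022). *Gm14820*, on the opposite strand, overlaps 14.6% of the exon length of *Suv39h1*. Counting without strand discarded the fragments there if the annotation used for counting held both genes. *Suv39h2*, which encodes the related enzyme, had 37.2 and 37.2 cpm for WT and 35.3 and 40.5 cpm for KO at 1000 cells, which overlapped. At 100 cells it had 36.9 and 34.0 cpm for WT and 29.9 cpm for each KO library, with KO below WT. Its log2 ratios were 0.03 ± 0.10 (edgeR adjusted p = 0.84) and -0.29 ± 0.13 (edgeR adjusted p = 0.11), and 9.98% of its exon length is overlapped by *Dclre1c* and *Gm13184* on the opposite strand.

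The split within related genes was also followed. *Suv39h1* made up 32.9% and 29.3% of the counts of *Suv39h1* and *Suv39h2* together in the WT 1000-cell libraries and 46.5% and 44.1% in the matching KO libraries. At 100 cells its share was 32.9% and 31.8% for WT and 50.7% and 53.2% for KO. The 95% Wilson intervals of the KO libraries (lowest bound 41.1%) lay above those of the WT libraries (highest bound 36.9%). These intervals cover counting error only, and a share of counts depends on the lengths of both genes. *Ehmt2* made up 44.6% and 43.5% of the counts of *Ehmt2* and *Ehmt1* for WT and 39.4% and 35.7% for KO at 1000 cells, and 51.2% and 49.6% for WT and 39.1% and 44.4% for KO at 100 cells. The share was lower in KO than in WT within each input. At 1000 cells the counting intervals of WT replicate 2 (41.1% to 45.9%) and KO replicate 1 (36.6% to 42.3%) overlapped. Across inputs, KO 100-cell replicate 2 lay between the WT 1000-cell libraries.

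**Figure D2:**
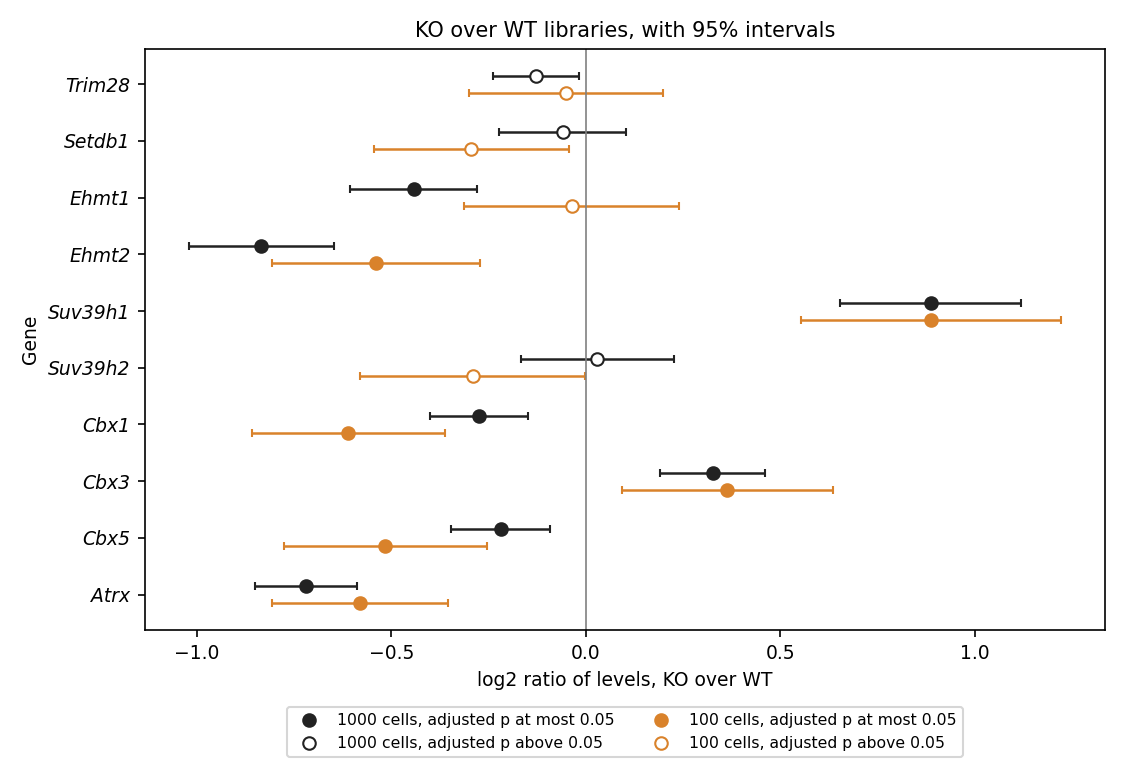
Log2 ratio of levels, KO over WT (x axis), for each gene (y axis) at 1000 and at 100 cells, with 95% intervals from the edgeR fit. Filled points passed an adjusted p of 0.05 and open points did not. *Suv39h1* stood at 0.89 at both inputs, and *Ehmt1* was filled at 1000 cells only.

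The 3 HP1 genes did not move together. *Cbx3* (HP1 gamma), found also along active genes, had, at 1000 cells, 182 and 197 cpm for WT and 226 and 249 cpm for KO. With 100 cells its levels were 164 and 206 cpm for WT and 247 and 243 cpm for KO. All KO libraries were higher than all WT libraries. The log2 ratio was 0.33 ± 0.07 (1.25-fold, edgeR adjusted p = 0.00018) at 1000 cells and 0.36 ± 0.12 (1.29-fold, edgeR adjusted p = 0.043) at 100 cells, where testing every gene with at least 1 count ended the call (edgeR adjusted p = 0.080). Processed copies of *Cbx3* (*Cbx3-ps6*, *Cbx3-ps7*) and *Gm49164* are among the genes that share sequence windows with it, 8.67% of its windows in all, and fragments from such windows may have been discarded or placed elsewhere.

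*Cbx1* (HP1 beta) had, at 1000 cells, 291 and 308 cpm for WT and 241 and 254 cpm for KO. The corresponding levels with 100 cells were 263 and 310 cpm for WT and 192 and 194 cpm for KO. The highest KO library was below the lowest WT library. Its log2 ratios were -0.28 ± 0.06 (edgeR adjusted p = 0.00054) and -0.61 ± 0.11 (edgeR adjusted p = 0.0032). *Cbx5* (HP1 alpha), a form concentrated at pericentromeric heterochromatin, had, at 1000 cells, 294 and 306 cpm for WT and 247 and 268 cpm for KO. The 100-cell levels were 271 and 229 cpm for WT and 182 and 178 cpm for KO. KO was below WT within each input, while the KO 1000-cell libraries overlapped the WT 100-cell libraries. Its log2 ratios were -0.22 ± 0.06 (edgeR adjusted p = 0.0050) and -0.52 ± 0.12 (edgeR adjusted p = 0.0087). The call at 1000 cells ended without KO replicate 1 (log2 ratio -0.16, edgeR adjusted p = 0.091) and in a single fit of all 8 libraries (log2 ratio -0.22, edgeR adjusted p = 0.090).

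Relative to the other HP1 genes, *Cbx3* had a larger part of the counts in KO within each input. Of the counts of *Cbx3* and *Cbx1*, it made up 38.5% and 39.0% for WT and 48.4% and 49.5% for KO at 1000 cells, and 38.4% and 39.9% for WT and 56.2% and 55.6% for KO at 100 cells. Its share with *Cbx5* was 38.3% and 39.2% for WT against 47.8% and 48.1% for KO at 1000 cells, and 37.7% and 47.4% for WT against 57.6% and 57.7% for KO at 100 cells. The WT 100-cell library at 47.4% was close to the KO 1000-cell libraries on this measure, and their counting intervals overlapped. *Cbx1* stayed at 48.6% to 57.6% of the counts of *Cbx1* and *Cbx5* in every library, with no order by genotype.

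**Figure D3:**
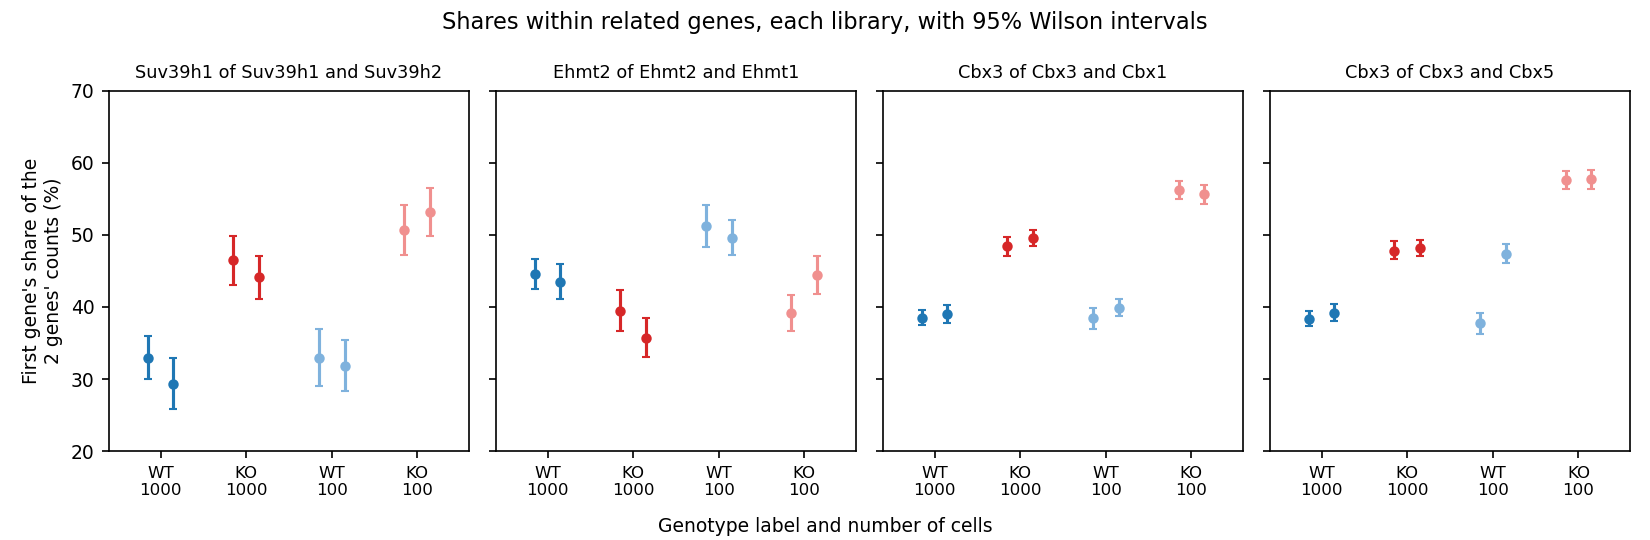
Share of the first gene in the summed counts of a pair of related genes (y axis, %, from 20 to 70) in each library, by genotype label and number of cells (x axis), with 95% Wilson intervals that cover counting error only. *Suv39h1* and *Cbx3* held larger shares in KO than in WT within each input.

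*Atrx*, on the X chromosome, encodes the remodeller. It had, at 1000 cells, 522 and 538 cpm for WT and 297 and 346 cpm for KO. With 100 cells its levels were 341 and 339 cpm for WT and 241 and 228 cpm for KO. KO was lower within each input, but KO 1000-cell replicate 2 was above both WT 100-cell libraries. The log2 ratio was -0.72 ± 0.06 (0.607-fold, edgeR adjusted p = 2.92e-10) at 1000 cells and -0.58 ± 0.10 (0.668-fold, edgeR adjusted p = 0.0026) at 100 cells. *Suv39h1* lies on the X chromosome as well, and the median log2 ratio of the 296 other X-linked genes averaging 10 cpm or more was 0.09 at 1000 cells and between -0.08 and -0.07 at 100 cells. Relative to those medians, *Atrx* stood at -0.81 and -0.51 and *Suv39h1* at 0.80 and 0.96. For *Ehmt2*, on chromosome 17, the values relative to its chromosome were -0.78 and -0.40. Within 10 Mb of *Cbx5*, on chromosome 15, the median log2 ratio of 72 genes was -0.12 at 1000 cells and -0.14 at 100 cells, against -0.22 and -0.52 for *Cbx5* itself. No called member changed sign after its chromosome median was taken off.

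The comparison of 100 with 1000 cells within a genotype asks which levels depend on input. In WT, 1 member was called, *Atrx*, which fell at a log2 ratio of -0.65 ± 0.11 (0.635-fold, edgeR adjusted p = 0.019), against 0.827% of all genes called and 0.678% called lower. Leaving out WT 1000-cell replicate 1 or 2 ended the call, at log2 ratios of -0.68 and -0.62. Leaving out WT 100-cell replicate 1 or 2 raised the count to 3 members each, with 15.6% and 15.5% of all genes called in those fits. In KO, 7 members were called, against 52.1% of all genes, 27.3% higher and 24.8% lower. *Trim28* (log2 ratio 0.42 ± 0.05, edgeR adjusted p = 6.02e-09), *Ehmt2* (0.44 ± 0.09, edgeR adjusted p = 7.95e-05) and *Ehmt1* (0.19 ± 0.08, edgeR adjusted p = 0.038) rose. The call of *Ehmt1* was lost in 6 of 11 alternatives (adjusted p up to 0.45), among them DESeq2 (adjusted p = 0.20). Its log2 ratio was 0.17 without KO 1000-cell replicate 1 and 0.10 without KO 100-cell replicate 1. *Cbx5* (-0.51 ± 0.06, edgeR adjusted p = 1.71e-09), *Atrx* (-0.45 ± 0.06, edgeR adjusted p = 6.50e-08), *Cbx1* (-0.35 ± 0.05, edgeR adjusted p = 1.46e-06) and *Suv39h2* (-0.34 ± 0.09, edgeR adjusted p = 0.0017) fell. In bulk RNA, fewer ES cells and less RNA per cell cannot be told apart, and the neuron and glia markers given above rose in the same KO 100-cell libraries.

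*Suv39h1*, *Cbx3* and *Setdb1* gave log2 ratios of 0.05 ± 0.09, 0.05 ± 0.05 and -0.02 ± 0.07 between inputs in KO, none of which passed, with 95% intervals between -0.16 and 0.23. *Trim28* had 1.21-fold the level at 100 cells in WT, with both 100-cell libraries above both 1000-cell libraries (log2 ratio 0.28 ± 0.12, edgeR adjusted p = 0.34). The KO over WT ratio did not differ between inputs past the threshold for any of the 10 members, against 16.3% of all genes (2745 at an adjusted p of 0.05). At an unadjusted edgeR p under 0.05 it differed for 3 members (*Ehmt1*, *Ehmt2* and *Cbx1*), against 5404 of all 16816 genes. *Ehmt1* came nearest, as given above, and DESeq2 also gave 0, while limma-voom and 3 other settings gave 1. The differences ranged from -0.29 ± 0.13 (*Cbx1*, 95% interval -0.57 to -0.01, edgeR adjusted p = 0.14) to the value of *Ehmt1*.

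**Figure D4:**
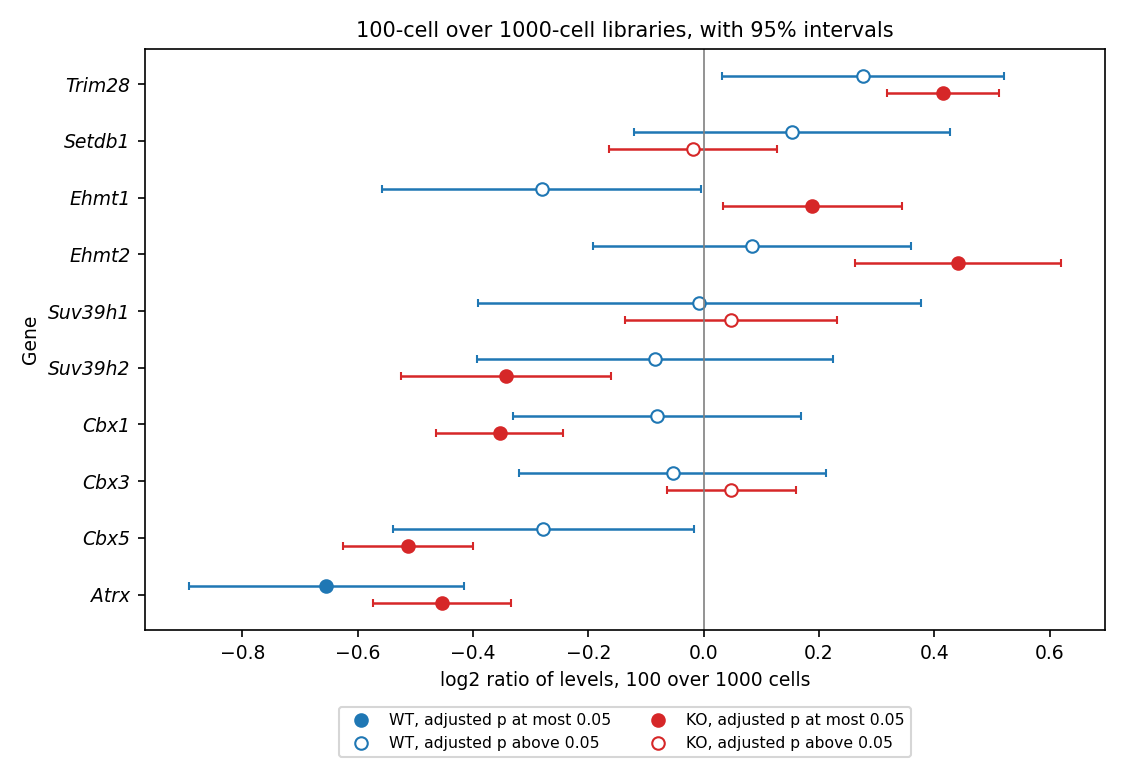
Log2 ratio of levels at 100 over 1000 cells (x axis) for each gene (y axis) in WT and in KO, with 95% intervals from the edgeR fit. Filled points passed an adjusted p of 0.05: *Atrx* alone in WT, and 7 of the 10 genes in KO, where the intervals were narrower.

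By likeness, 4 genes outside the set were named for the pattern closest to that of *Trim28* and each HP1 gene, by the root mean square difference of centred log2(cpm + 1) over the 8 libraries among 8368 genes averaging 10 cpm or more. They were *Dhx35* for *Trim28* (0.0446), *4930453N24Rik* for *Cbx1* (0.0441), *Psip1* for *Cbx3* (0.0324) and *Epc2* for *Cbx5* (0.0431). The members themselves varied by 0.184 (*Trim28*), 0.253 (*Cbx1*), 0.208 (*Cbx3*) and 0.275 (*Cbx5*) about their own mean on the same scale.

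Of 67 other genes of the pathway, 60 were tested, and the 7 others had at most 7 counts in any library. Of these, 5 (*Mecom*, *Wfdc15a*, *Zscan4c*, *Zscan4d* and *Zscan4f*) reached 10 counts in WT libraries alone, so that they passed the filter on low counts only through WT. Over the other 55, 10 rose and 26 fell at 1000 cells (median log2 ratio -0.18), against 20.9% and 20.6% of all genes, and 8 rose and 14 fell at 100 cells (median -0.08), against 17.6% and 16.6%. These shares of all genes stand beside each list that follows as well. Of all 60, 23 were called at 100 cells, 41 and 38 without WT 100-cell replicate 1 or 2 (54.0% and 56.8% of all genes), and 11 and 6 without KO 100-cell replicate 1 or 2 (12.5% and 12.3% of all genes). Between inputs, 4 of the 60 were called in WT, all lower, against 0.678% of all genes called lower. In KO 36 were called, 16 higher and 20 lower, against 27.3% and 24.8% of all genes.

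Partners of the methyltransferases, listed with further methyltransferase genes (*Setdb2*, *Prdm2*, *Mecom* and *Prdm16*), were never called higher in KO. Of the 11 with 10 counts in both genotypes, 8 fell at 1000 cells (median log2 ratio -0.26) and 4 fell at 100 cells (median -0.22). *Morc2a*, which encodes an ATPase that works with the HUSH complex and SETDB1, had the largest sum of both ratios among those called at both inputs, through its value at 100 cells. It had, at 1000 cells, 1185 and 834 counts for WT and 676 and 748 for KO, and at 100 cells 803 and 855 for WT and 388 and 395 for KO. The log2 ratio was -0.39 ± 0.08 (edgeR adjusted p = 0.00022) and -1.33 ± 0.14 (edgeR adjusted p = 0.00024), and the difference between inputs passed (-0.90 ± 0.15, edgeR adjusted p = 0.0028). *Atf7ip*, which encodes a stabilising partner of SETDB1 and was named after its values were seen, fell at both inputs (-0.60 ± 0.07 and -0.39 ± 0.11, edgeR adjusted p = 9.43e-08 and 0.024). Its call at 100 cells was lost with every gene kept (edgeR adjusted p = 0.0511) and without KO replicate 1 or 2 (log2 ratios -0.34 and -0.45).

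Of 10 H3K9 demethylase and related genes, 4 rose and 3 fell at 1000 cells (median 0.27) and 3 rose and 2 fell at 100 cells (median 0.37). *Kdm4b*, which encodes a demethylase of trimethylated H3K9, had, at 1000 cells, 211 and 119 counts for WT and 245 and 187 for KO, and at 100 cells 126 and 190 for WT and 278 and 319 for KO. Its log2 ratios were 0.52 ± 0.16 (edgeR adjusted p = 0.0099) and 0.70 ± 0.16 (edgeR adjusted p = 0.011). The call at 100 cells was lost without KO replicate 1 or 2 (log2 ratios 0.805 and 0.58). Leaving out a single library gave 0.23 to 0.78 at 1000 cells, and an adjusted p of up to 0.36.

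Among 13 other readers and HP1 partners, 2 rose and 4 fell at 1000 cells (median -0.17) and 3 rose and 1 fell at 100 cells (median 0.12). *Cdyl2*, which encodes a chromodomain protein, fell with log2 ratios of -0.72 ± 0.07 (edgeR adjusted p = 4.89e-09) and -0.71 ± 0.11 (edgeR adjusted p = 0.0019). Its call at 100 cells was lost without KO replicate 2 (log2 ratio -0.68). *Chaf1a*, which encodes the large subunit of chromatin assembly factor 1, a partner of HP1, was named after its values were seen because its sign turned: -0.82 ± 0.12 (edgeR adjusted p = 3.35e-06) at 1000 cells and 0.65 ± 0.21 (edgeR adjusted p = 0.039) at 100 cells, with a difference of 1.50 ± 0.28 (edgeR adjusted p = 0.0041). That turn was the reason for the choice, so the test of the difference is not separate support for it. The call at 100 cells was lost with every gene kept (edgeR adjusted p = 0.072) and without KO replicate 1 (edgeR adjusted p = 0.094) or 2 (edgeR adjusted p = 0.12). Its mean level was 36.6 ± 0.28 cpm (SD, n = 2) for WT and 20.9 ± 5.59 cpm for KO at 1000 cells, while at 100 cells it was 29.6 ± 11.5 cpm for WT and 48.3 ± 0.54 cpm for KO.

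Of 8 genes for H3.3 and for histone chaperone complexes, DAXX among them, 2 rose and 2 fell at 1000 cells (median -0.02). At 100 cells 2 rose (median -0.20). *H3f3a*, an H3.3 gene, rose at both inputs (log2 ratio 0.43 ± 0.07 and 0.63 ± 0.17, edgeR adjusted p = 2.32e-05 and 0.020). Its call at 100 cells was lost without KO replicate 2 (log2 ratio 0.55). *Daxx*, which encodes the H3.3 chaperone bound by ATRX and was named after its values were seen, fell at 1000 cells (-0.39 ± 0.10, edgeR adjusted p = 0.0018) and rose at 100 cells (0.33 ± 0.11, edgeR adjusted p = 0.048). The difference was 0.77 ± 0.16 (edgeR adjusted p = 0.0071), a test that is not separate from the choice of the gene. The call at 1000 cells was lost without KO replicate 2 (-0.24, edgeR adjusted p = 0.11), as was that of the difference (0.62, edgeR adjusted p = 0.059). The call at 100 cells was lost with DESeq2 (adjusted p = 0.098), with every gene kept (edgeR adjusted p = 0.077) and without KO replicate 1 (edgeR adjusted p = 0.36) or 2 (edgeR adjusted p = 0.42).

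Of 8 KRAB zinc finger genes, which encode the DNA-binding side of the TRIM28 pathway, 7 were tested: 2 rose and 5 fell at 1000 cells (median -0.41), and 4 fell at 100 cells (median -0.44). *Rex2* had, at 1000 cells, 1523 and 1127 counts for WT and 544 and 673 for KO, and at 100 cells 1034 and 1302 for WT and 413 and 472 for KO. Its log2 ratios were -1.02 ± 0.08 (edgeR adjusted p = 3.38e-11) and -1.64 ± 0.12 (edgeR adjusted p = 4.74e-05), with a difference of -0.57 ± 0.15 (edgeR adjusted p = 0.018). The call of the difference was lost without WT 1000-cell replicate 1 or 2 (-0.539 and -0.604). It was also lost without KO 1000-cell replicate 2 (-0.499) or KO 100-cell replicate 1 (-0.47). *Zfp809*, which encodes the protein that brings TRIM28 to a retroviral primer binding site, fell as well (-0.99 ± 0.10 and -1.12 ± 0.23, edgeR adjusted p = 3.69e-09 and 0.0054) and was named after its values were seen. Near-identical copies of such genes make these values uncertain.

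Of 16 germline and 2-cell-stage genes that these marks are known to silence, 10 were tested. Of the 6 that reached 10 counts in both genotypes, 4 fell at 1000 cells (*Cyct*, *Fkbp6*, *Mael* and *Tuba3a*) and 3 at 100 cells (*Cyct*, *Dazl* and *Fkbp6*), with medians of -0.47 and -0.90. *Zscan4d*, which among the genes called at both inputs had the largest ratio, passed the filter on low counts only through WT, so its calls are not support. It had, at 1000 cells, 3 and 300 counts for WT and 6 and 0 for KO, and at 100 cells 5 and 8 for WT and 0 and 0 for KO. Its call at 100 cells was lost with DESeq2 (adjusted p = 0.056) and in a single fit of all 8 libraries (edgeR adjusted p = 0.34). Leaving out KO 100-cell replicate 1 or 2 ended that call as well (log2 ratios -5.79 and -5.8). Its call at 1000 cells rested on WT replicate 2, without which the log2 ratio was 0.34 (edgeR adjusted p = 0.87), and *Zscan4c* (198 counts) and *Zscan4f* (365 counts) were high in the same library. *Fkbp6*, a meiotic gene named after its values were seen, had, at 1000 cells, 246 and 189 counts for WT and 30 and 37 for KO, and at 100 cells 153 and 184 for WT and 41 and 42 for KO. Its log2 ratios were -2.59 ± 0.19 (edgeR adjusted p = 6.24e-12) and -2.26 ± 0.21 (edgeR adjusted p = 0.00014).

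**Figure D5:**
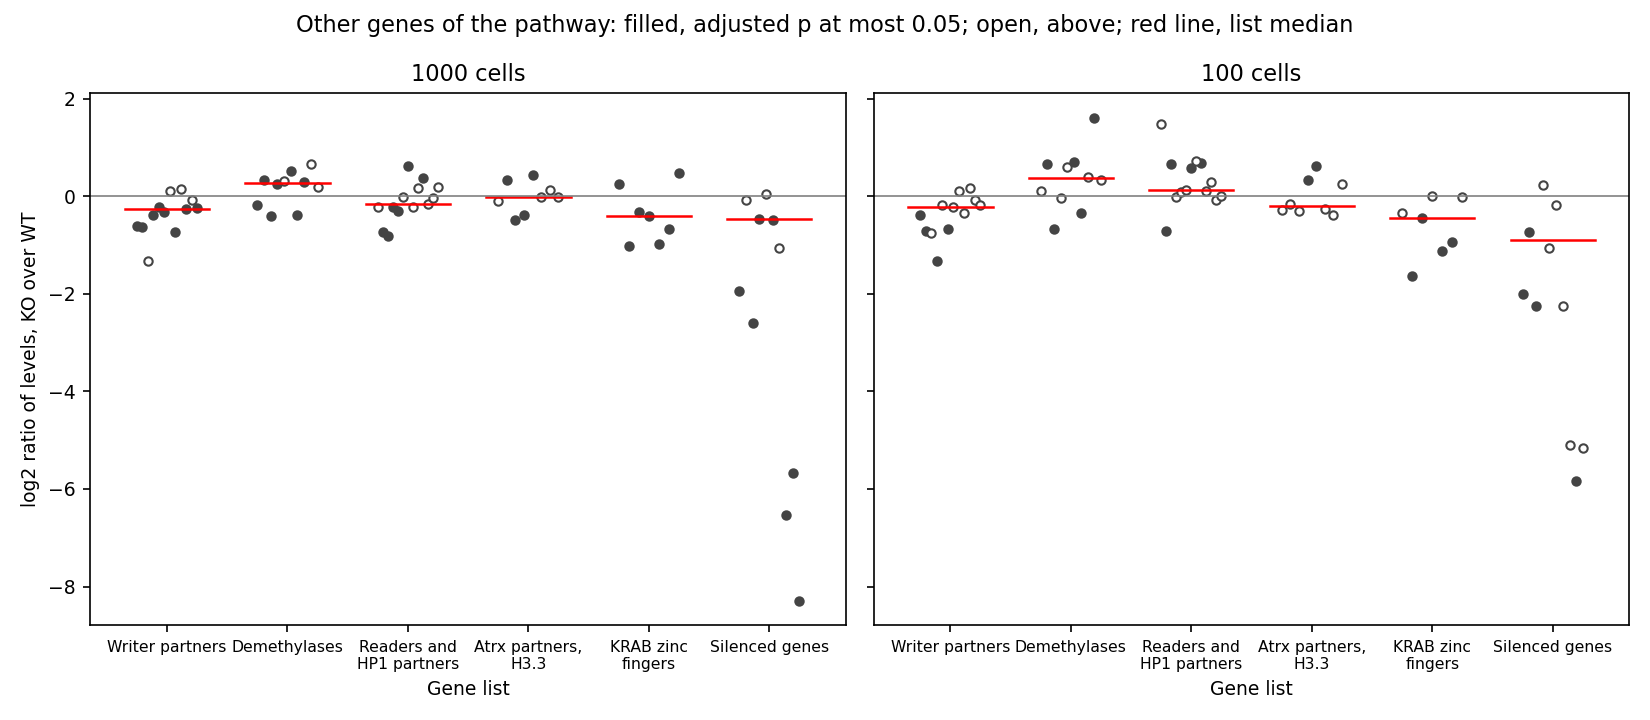
Log2 ratio of levels, KO over WT (y axis), for the 60 tested genes of 6 lists (x axis) at 1000 cells (left) and 100 cells (right). Filled points passed an adjusted p of 0.05, open points did not, and red lines are list medians without the 5 genes that reached 10 counts in WT alone. The points below -5 are *Zscan4* genes with few counts in most libraries.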

How the data were processed

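Fragments were counted per gene in 8 SMARTer Ultra Low libraries. The deposited values are raw counts. To make them, the authors removed ribosomal RNA reads with Bowtie2 2.1.0, mapped the remaining pairs to mm10 with TopHat2 2.0.10 and counted fragments over GENCODE genes with HTSeq 0.6.1 in union mode without strand, which discards fragments of several genes or positions. CASAVA 1.8.2 is also listed in the submitters' processing notes. Removal of PCR duplicates is not given in the sources used here.

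Symbols and exon lengths came from a later GENCODE annotation of the same build, which matched 42425 of 43309 identifiers (97.96%), and promoters from RefSeq, in which all 10 members were found. Groups were taken from the labels. Genes reaching 10 counts in 1 or more libraries were kept, and KO was compared with WT at each input, and 100 with 1000 cells in each genotype, on the 4 libraries concerned with edgeR 4.0.16 (R 4.3.3; TMM, quasi-likelihood F test, two-sided, Benjamini-Hochberg over all 16816 genes, adjusted p at most 0.05). The difference between inputs was the interaction in 1 fit of all 8 libraries. The code was tested on simulated data. Totals of 9666985 to 16686525 counts and n = 2 set the precision, and Wilson and Poisson intervals (95%, scipy 1.17.1) cover counting error only. Alternatives were other size factors, no filter on low counts, DESeq2 1.42.0, limma 3.58.1 (voom), a replicate block, a single fit of all libraries, values relative to the chromosome median, and leaving out each library.

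The members and lists were chosen with earlier results of these data known. An item of the neuron marker list is not reported here and was left out of its sums. Every member was to be described and, of each other list, the gene with the largest ratio among those called at both inputs with the same sign.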

Additional observations from a re-analysis of the deposited data

Results flagged for a closer look

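The KO over WT ratio of 4 named genes differed between inputs by the interaction test. In that test 12 of the 60 other pathway genes were called, against 16.3% of all genes. Such a call by itself therefore does not set a gene apart. For *Morc2a* the difference was -0.90 on the log2 scale (edgeR adjusted p = 0.0028), with a lower level in KO at both inputs and a larger fall at 100 cells. For *Rex2* it was -0.57 (edgeR adjusted p = 0.018), again with KO lower at both inputs, and this call was lost in 4 of 14 alternatives. For *Chaf1a* the difference was 1.50 (edgeR adjusted p = 0.0041) and for *Daxx* 0.77 (edgeR adjusted p = 0.0071), each with KO lower at 1000 cells and higher at 100 cells. The call of *Daxx* was lost in 1 of 14 alternatives. *Chaf1a* and *Daxx* were named after their values were seen, so their tests are not separate from the choice. All 4 values use the KO 100-cell libraries, in which neuron and glia markers were high, and the part of that RNA in them was not tested. With 2 libraries a group, no outlier test was made.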

How the results depend on the processing

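With 2 libraries a group, each library weighs on the calls, and the KO 100-cell libraries held RNA of neuron and glia markers. For KO against WT at 1000 cells, 6 to 7 members and 30 to 35 other pathway genes were called with each library left out. At 100 cells these ranges were 0 to 8 and 6 to 41, for 100 against 1000 cells in WT 0 to 3 and 0 to 22, in KO 6 to 7 and 30 to 37, and for the difference between inputs 0 to 4 and 2 to 25. Over all genes the calls ranged from 5555 to 6418, 2066 to 9551, 6 to 2631, 6698 to 8529 and 727 to 5633 in these comparisons, in the same order. The cause was not tested.

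For the difference between inputs, 1 member in place of 0 was called with DESeq2 size factors in edgeR, library size alone, every gene with at least 1 count, and limma-voom. In WT, 8 other pathway genes in place of 4 were called between inputs with every gene kept, with the replicate block and with the crossed replicate block, which was added after seeing the data. Over all genes, 1.86%, 1.69% and 3.04% were called in these settings, in place of 0.827%.

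Signs turned only for members that had not passed, and for *Zscan4d* (-10.4 to 0.34 with each library left out at 1000 cells). For KO against WT, *Suv39h2* at 1000 cells turned to -0.057 with library size alone (-0.074 to 0.13 with each library left out), and *Ehmt1* at 100 cells to 0.0061 in a single fit of all libraries (-0.13 to 0.081). *Trim28* at 100 cells gave -0.11 to 0.025 with each library left out. Between inputs in WT, *Suv39h1* turned to 0.0026 with DESeq2 size factors in edgeR, 0.0051 with DESeq2, 0.0013 with the replicate block and 0.0012 in a single fit (-0.13 to 0.12), and *Suv39h2* (-0.16 to 0.0043), *Cbx1* (-0.17 to 0.014) and *Cbx3* (-0.20 to 0.083) turned with a library left out. In KO these ranges were -0.039 to 0.0095 for *Setdb1*, -0.024 to 0.12 for *Suv39h1* and -0.012 to 0.12 for *Cbx3*. For the difference between inputs they were -0.092 to 0.15 for *Suv39h1* and -0.074 to 0.26 for *Cbx3*.

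With the replicate block *Trim28* passed at 1000 cells (-0.13, edgeR adjusted p = 0.027), and the block changed no other call of a member. Replicate differences correlated across 8368 genes at 0.157 (KO and WT, 1000 cells), 0.172 (100 cells), -0.125 (inputs, WT) and -0.0384 (inputs, KO), and with 2 pairs the numbers were not taken to pair samples. With the replicate block, genes called over the whole table went from 6979 to 7426 (KO against WT, 1000 cells), 5756 to 6433 (100 cells), 139 to 285 (inputs, WT), 8753 to 8756 (inputs, KO) and 2745 to 2684 (difference between inputs), and the crossed pairing gave 512 between inputs in WT.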
